A study of Mus musculus and Acomys cahirinus with 84 samples.

Results

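The Hox genes encode homeodomain transcription factors that give cells their position along the body axis. The members described here are all genes with a symbol made of Hox, a cluster letter from a to d and a number: 39 genes in the mouse count table, of 56980 genes in all, and 39 in the A. cahirinus table, of 19818. HoxA has 11 of them, HoxB 10, HoxC 9 and HoxD 9. The study sequenced polyA RNA of primary skin fibroblasts, which are connective tissue cells taken from skin and grown in a dish, in 84 libraries from 3 populations: C56BL6 laboratory mice, wild mice (both Mus musculus) and Acomys cahirinus, the African spiny mouse. The cells were left untreated or received 10 Gy or 20 Gy of gamma radiation, and were collected 24 h or 12 d later. At 12 d there was also an untreated culture that had been passaged, that is, replated during the 12 d. This gives 21 groups of 4 libraries. The labels give no age, sex, body site or passage number, and no allele or transgene.

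In mammals the Hox genes lie in 4 clusters, and their order along the chromosome follows the order of the body levels at which they are switched on: low-numbered genes toward the head, high-numbered genes toward the tail and the ends of the limbs. Skin fibroblasts of adults keep much of the Hox pattern of the place in the body they came from, through many divisions in culture, with Polycomb group proteins holding unused genes silent and Trithorax group proteins such as Kmt2a holding used genes active. Hox proteins bind DNA together with the cofactors Pbx, Meis and Pknox.

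On mouse assembly GRCm39 the HoxA cluster lay at chr6:52132570-52237788, HoxB at chr11:96085142-96259082, HoxC at chr15:102829538-102945278 and HoxD at chr2:74498654-74595486. In the AcoCah2 annotation the same clusters lay on scaffold_3, scaffold_9, scaffold_6 and scaffold_10, each on a single scaffold. CPM, the count of a gene scaled to a fixed total of counts assigned to genes per library, is the scale of all levels below unless another is named. Libraries held between 26653561 and 39819857 counts in C56BL6, 17419339 and 35984517 in wild mouse and 25552727 and 52857478 in A. cahirinus. The 10 fibroblast markers examined summed to 15854 to 76919 CPM over all libraries. In the libraries of C56BL6 replicate 1 the 6 keratinocyte markers summed to 350 to 472 CPM at 24 h and 268 to 918 CPM at 12 d, against 1.38 to 5.95 CPM in the other C56BL6 libraries, and the part of these cells in the results was not tested. The 4 muscle markers summed to 1076 to 8166 CPM in A. cahirinus and 6.87 to 1978 CPM in wild mouse. In bulk RNA, fewer cells of a type and less RNA per cell cannot be told apart. The counting did not use strand: of the 39 mouse members 10 shared more than 10% of their exon bases with another gene, up to 62.8% for Hoxd3, 53.1% for Hoxb3 and 52.3% for Hoxd4, so their values are less certain. In A. cahirinus 37 of the 39 models overlapped no other annotated gene. Its table holds 19818 genes against 56980 in mouse, and reads of the opposite strand would be counted there too. The lack of annotated overlap therefore does not make its values more certain.

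The libraries of 1 replicate number share a code in their names across doses and times, which is read here as the animal. The wild mouse libraries labelled replicate 1 went against this reading. Over the 39 members, on a log2(CPM + 1) scale, the mean profile of replicate 1 at 24 h had a Pearson r of 0.984 with that of replicate 3 at 24 h, but of 0.279 with that of replicate 1 at 12 d. The replicate 1 profile at 12 d had an r of 0.991 with replicate 4 at 12 d and 0.987 with replicate 4 at 24 h. For each of the other 3 wild numbers the 24 h and 12 d profiles had an r of 0.988 to 0.990. In C56BL6 and A. cahirinus the r between times was 0.972 to 0.991 for the 8 same numbers and 0.947 to 0.988 for different numbers. There these profiles do not tell every number apart. C56BL6 replicate 1 at 24 h had an r of 0.991 with its own number at 12 d, against 0.961 to 0.973 with the others. For A. cahirinus replicate 2 at 24 h these were 0.986, against 0.953 to 0.958. Over 12839 genes the mean profiles of wild replicates 1 and 4 at 12 d differed by 0.161 log2 units on average, less than any other pair of wild profiles. These correlations describe genes that share libraries and are not tests. Counts of called members and measures of spread in wild mouse are therefore given with and without replicate 1. The labels also give batch B1 for all 24 h libraries and B2 for all 12 d libraries, which means that the effect of time cannot be told apart from that of the batch, and 24 h was not tested against 12 d.

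Most of the Hox genes that were expressed in any population were expressed in all 3. Of the 39 members, 24 reached a mean of 1 CPM in at least 1 group of every population, among them Hoxa2 to Hoxa7, Hoxa9 and Hoxa10, Hoxb2 to Hoxb8, Hoxc4, Hoxc5, Hoxc6, Hoxc8, Hoxc9 and Hoxc10, and Hoxd8 and Hoxd9. Another 8 stayed below that level in all 21 groups, namely Hoxa13, Hoxb1, Hoxb13, Hoxd1, Hoxd10, Hoxd11, Hoxd12 and Hoxd13, most of them genes of the tail, genital and limb-end levels. In A. cahirinus Hoxb8 and Hoxc10 passed it in irradiated groups at 12 d alone, with untreated means of 0.88 and 0.837 CPM there. Hoxb9 and Hoxc13 passed it in both mice but not in A. cahirinus. Hoxc13, which is known for its part in hair shaft formation, stood at 6.99 ± 2.85 CPM (SD, n = 4) in untreated C56BL6 cells at 24 h, and its mean stayed below 1 CPM in all A. cahirinus groups. Hoxd3 and Hoxd4 passed it in A. cahirinus alone, Hoxc11 and Hoxc12 in wild mouse alone, and Hoxa11, a gene of the limb and hind body, in wild mouse and A. cahirinus. In mouse Hoxd3 and Hoxd4 share 62.8% and 52.3% of their exon bases with other genes, while in A. cahirinus they overlap no annotated gene. The gene models of the species differ, and their part in which members passed was not tested. Summed over the 39 members, the level was 346 to 655 CPM in C56BL6, 225 to 474 CPM in wild mouse and 312 to 502 CPM in A. cahirinus.

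Levels of different genes can be set side by side only per length, here as TPM, a count divided by the gene's exon length and scaled to a fixed sum per library. Hoxc8, a gene of the middle trunk, led in untreated C56BL6 cells, with 162 ± 53.9 TPM (SD, n = 4) at 24 h and 226 ± 68.8 at 12 d. At 24 h Hoxb9 followed with 113 ± 19.7 TPM, then Hoxc6 with 70.0 ± 16 and Hoxb7 with 31.8 ± 3.13. The spreads of Hoxc8 and Hoxb9 overlapped, and so did those of Hoxb7 and Hoxc4 (28.2 ± 4.82 TPM). At 12 d Hoxc6, with 95.6 ± 10.8 TPM, stood above Hoxb9 with 66.7 ± 13.6. In A. cahirinus Hoxc8 also led, with 49.5 ± 20.9 TPM at 24 h and 66.3 ± 21.1 at 12 d, but Hoxb2 came next, with 31 ± 5.96 and 59.6 ± 13.1 TPM. Hoxd8 followed Hoxb2 at 12 d with 44.8 ± 8.38. The spread of Hoxc8 (mean ± SD) overlapped that of Hoxb2 at both times, and their order is not firm. The gene models of the mouse and A. cahirinus tables differ, so TPM values are compared only within a population.

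**Figure D1:**
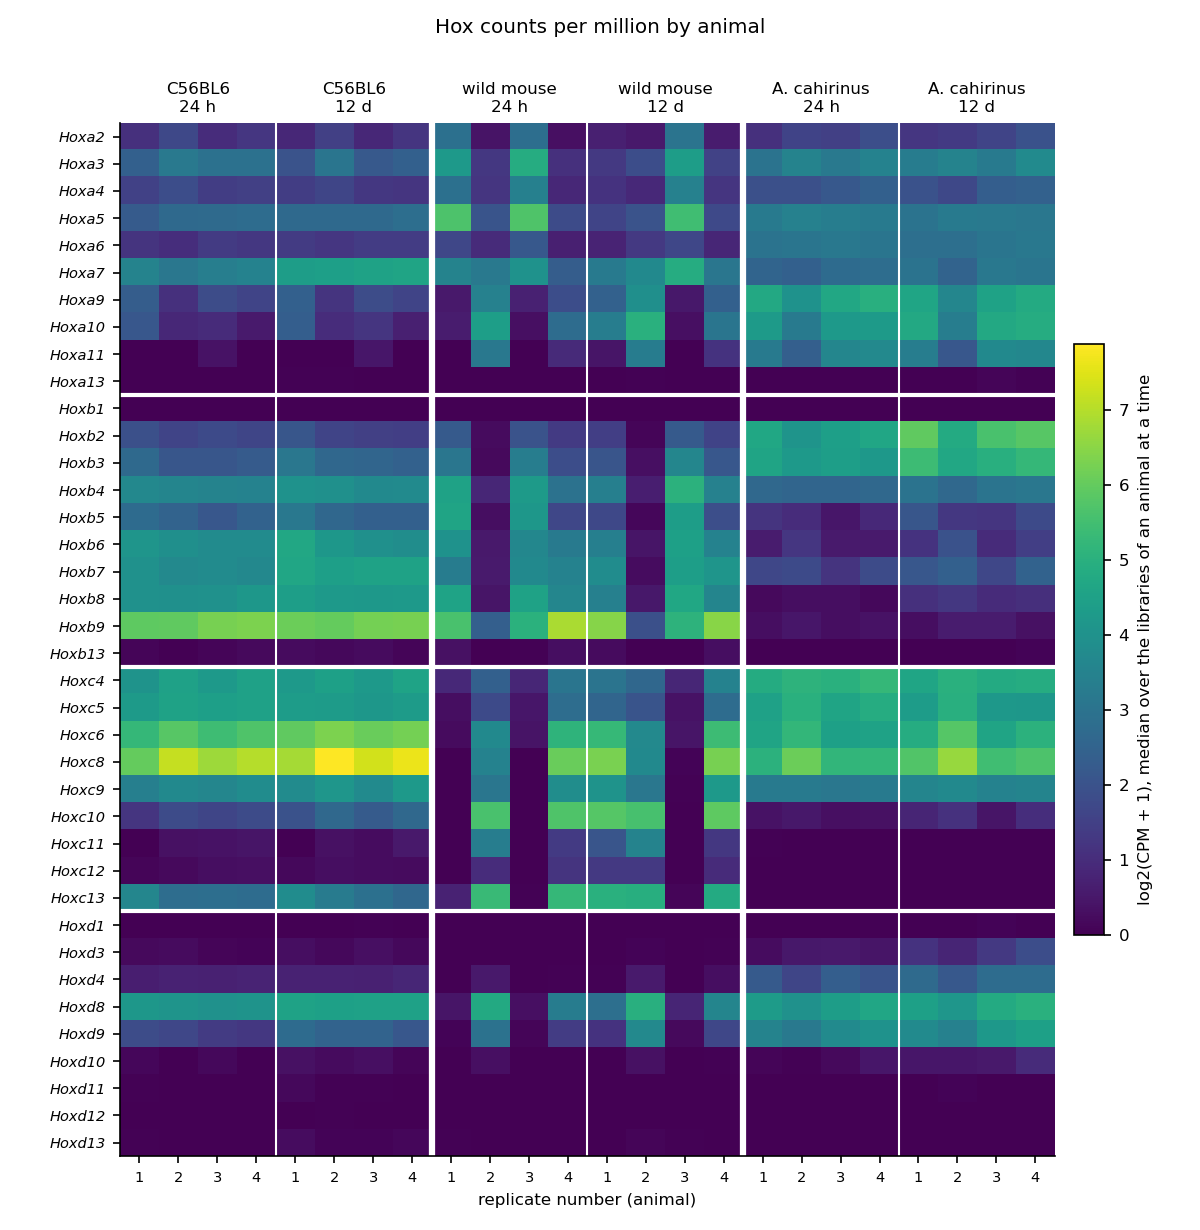
Hox levels by animal: each row is 1 Hox gene, each column 1 replicate number of a population at 1 time, and colour is log2(CPM + 1) of the median over its 3 (24 h) or 4 (12 d) libraries. The wild mouse columns differ by whole clusters, while those of C56BL6 and of A. cahirinus differ less.

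The wild mouse cultures differed from each other by whole Hox clusters. Replicate 3 had 15 members with a median of 1 CPM or more at each time, 7 of HoxA and 8 of HoxB, and none of HoxC or HoxD. Replicate 2 had 20 at each time, 8 of HoxA, 1 of HoxB, 9 of HoxC and 2 of HoxD. Replicate 4 had 25 at 24 h and 26 at 12 d, from all 4 clusters. Replicate 1 had 15 at 24 h, with the same 7, 8, 0 and 0 by cluster as replicate 3, and 26 at 12 d, from all 4 clusters.

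The summed HoxC level was 1.53 to 1.82 CPM over the 3 libraries of replicate 3 at 24 h and 1.13 to 2.4 CPM over its 4 at 12 d. In replicate 1 it was 1.35 to 2.78 CPM at 24 h and 192 to 257 CPM at 12 d. Replicate 2 held 112 to 141 CPM at 24 h and 94 to 143 at 12 d, and replicate 4 held 177 to 227 and 204 to 276. The HoxC sums thus lay either at 1.13 to 2.78 CPM or at 94 to 276 CPM, and cultures are called low or high by these sums. HoxB showed another order: replicate 2 held 5.54 to 7.13 CPM at 24 h and 2.32 to 6.52 at 12 d, while the lowest library of the other 3 numbers held 94.3 CPM.

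Hoxc10, a gene of the hind body and hind limb, read 0 to 0.0278 CPM over the 3 libraries of replicate 1 at 24 h, 44 to 48.9 in replicate 2, 0 in replicate 3 and 46.5 to 54.6 in replicate 4. At 12 d it read 48.6 to 60.7, 38.9 to 50.3, 0 to 0.0375 and 53.9 to 65.1 CPM. It was thus high in replicates 2 and 4 at both times, low in replicate 3 at both, and low at 24 h but high at 12 d under the label replicate 1. A library with 0 counts still allows up to 3 counts, which in wild mouse libraries is 0.0834 to 0.172 CPM, counting error alone.

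Hoxc8 read 0 to 0.139, 9.98 to 11.1, 0 and 52.6 to 69.2 CPM in replicates 1 to 4 at 24 h and 51.3 to 90.6, 9.66 to 15.6, 0 to 0.075 and 58.4 to 92.5 at 12 d. Its order among the cultures is that of Hoxc10, except that replicate 2 lies in between. Hoxa5, a gene of the neck and chest level that is needed for lung formation, ran the other way. It read 47.8 to 97.7, 2.81 to 3.44, 45.2 to 56.5 and 1.78 to 2.51 CPM at 24 h and 1.99 to 2.31, 2.21 to 4.49, 37.3 to 46.3 and 2.05 to 2.6 at 12 d. The cultures with HoxC sums under 3 CPM were thus those with the high Hoxa5 level, without overlap.

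Hoxa10, a gene of the lumbar level, read 19.5 to 24.2 CPM in replicate 2 at 24 h and 23.3 to 43.5 at 12 d, against 0.0357 to 9.94 CPM in the other wild libraries. Hoxa11 read 7.43 to 10.3 and 8.25 to 11.4 CPM in replicate 2. Replicate 2 was therefore the culture with the high 5' HoxA genes and nearly no HoxB. Hoxb9 read 28.5 to 52.7, 3.12 to 4.49, 29.2 to 39.5 and 110.2 to 122 CPM at 24 h, and 57.4 to 98, 0.912 to 4.3, 20.7 to 36.2 and 46 to 101.01 at 12 d.

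**Figure D2:**
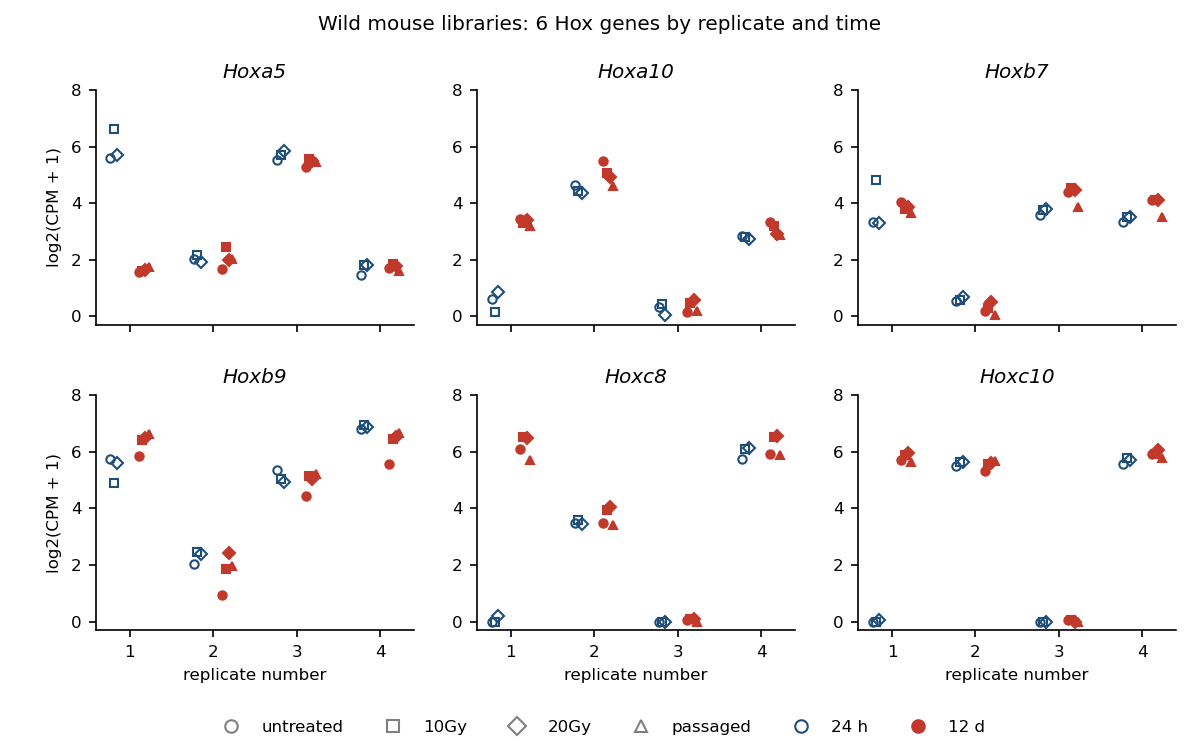
Wild mouse libraries: log2(CPM + 1) of 6 Hox genes (vertical axis) by replicate number (horizontal axis), with 24 h libraries as open blue and 12 d libraries as filled red symbols, and treatment by symbol shape. Libraries of 1 number and time group together whatever their dose, and replicate 1 changes its place between 24 h and 12 d.

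An edgeR quasi-likelihood F test of the animal terms, with treatment in the model, passed an adjusted p of 0.05 for 28 of 29 tested members in wild mouse at 24 h (37% of all genes tested) and for 30 of 30 at 12 d (67% of all genes). Hoxa6 was the one member that missed it, with an adjusted p of 0.0972 at 24 h. Leaving out the libraries labelled replicate 1 gave 30 of 30 at both times (67.1% and 59.6% of all genes). The ratio of the highest to the lowest animal mean, with means under 3 counts set to that floor, had a median of 40.5-fold over 28 members at 24 h and 43.3-fold at 12 d. Over all 12718 and 12801 genes at or above 1 CPM the medians were 1.66-fold and 1.48-fold. A ratio of 8 or more was reached by 25 of the 28 members at each time, against 7.93% and 6.86% of all genes. Without replicate 1 the medians were 28.4-fold and 43.3-fold (all genes 1.36-fold and 1.44-fold), and 25 of 28 members again reached 8-fold at each time (5.99% and 6.69% of all genes). At 24 h Hoxc8 was at least 543-fold higher in replicate 4 than in replicate 3, which had no count, and Hoxc10 at least 438-fold higher, with 3 counts of a mean library as the floor. At 12 d, where replicate 3 held single counts, the ratios to that floor were 635-fold and 504-fold. Animal number held a median of 98.5% of the sum of squares of the wild members at 24 h and 97.7% at 12 d, against 55.8% and 43.7% over all genes, and without replicate 1 99.1% and 98.1%, against 69.9% and 43.5%.

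Other position genes moved with these clusters. Tbx4, a factor of the hind limb and lung, read 12.5 to 49.3 CPM in wild replicate 1 and 20.8 to 27.9 CPM in replicate 3 at 24 h, and 19.6 to 28.9 CPM in replicate 3 at 12 d, but no more than 0.206 CPM in any other wild library. Tbx15, a factor of the dorsal skin and shoulder, read 10.1 to 15.5 CPM in replicate 1 and 14.5 to 20.4 in replicate 3 at 24 h and 18.8 to 22.2 CPM in replicate 3 at 12 d, against 79.8 to 164 CPM in the others. Hotair, the long non-coding RNA of the HoxC cluster, was at 0 in all libraries of replicate 3 and of replicate 1 at 24 h, and read 0.123 to 1.16 CPM in the others. Muscle markers summed to 1270 to 1978 CPM in replicate 1 at 24 h, 560 to 699 CPM in replicate 3 at 24 h and 136 to 474 CPM in it at 12 d, and to 6.87 to 70.0 CPM in the other wild libraries. Their part in the result was not tested.

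**Figure D3:**
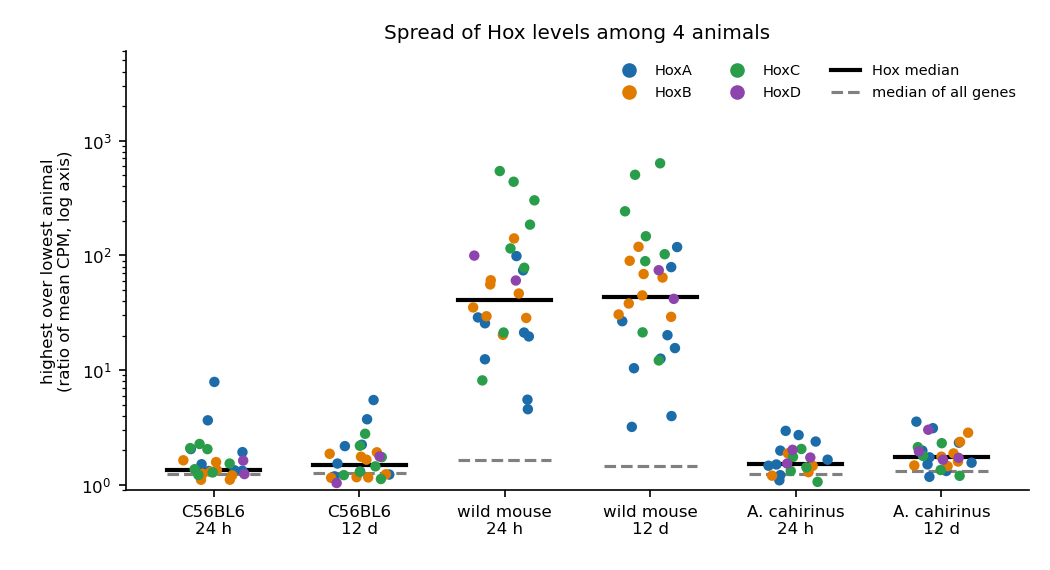
Spread among animals: the ratio of the highest to the lowest animal mean CPM (vertical, log axis) for Hox genes at or above 1 CPM, coloured by cluster, in each population and time, with means under 3 counts set to that floor. The Hox median (black line) is 40.5-fold and 43.3-fold in wild mouse and 1.36-fold to 1.75-fold in the others, and the dashed grey line is the median of all genes.

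In C56BL6 and A. cahirinus the animals differed far less. The median ratio of highest to lowest animal mean over the members at or above 1 CPM was 1.36-fold at 24 h and 1.49-fold at 12 d in C56BL6 (all genes 1.24-fold and 1.26-fold), and 1.52-fold and 1.75-fold in A. cahirinus (all genes 1.25-fold and 1.32-fold). No member reached 8-fold. The test of the animal terms passed for 21 of 27 members (57.7% of all genes) and 18 of 28 (43.3%) in C56BL6 at 24 h and 12 d, and for 20 of 28 (55%) and 23 of 29 (52.6%) in A. cahirinus. Without replicate 1 these counts were 12 of 28 (42.8% of all genes) and 10 of 30 (11.7%) in C56BL6. Without replicate 2 the A. cahirinus count at 12 d was 11 of 29 (13.7%), and from irradiated libraries alone it was 15 (36.7%).

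By the ratio of highest to lowest animal mean, Hoxa10 had the widest spread of the members at or above 1 CPM in C56BL6, 7.90-fold at 24 h and 5.49-fold at 12 d, and Hoxa11 in A. cahirinus, 2.96-fold and 3.56-fold. Hoxa10 read 2.88 to 3.87 CPM in C56BL6 replicate 1 at 24 h, above the 0.243 to 1.44 CPM of the other 3 numbers. Hoxc8 was lowest in the same cultures, with 61 to 67.9 CPM against 93.7 to 156 CPM. These are also the libraries with the keratinocyte markers. In A. cahirinus Hoxa10 was low in replicate 2, with 8.15 to 9.19 CPM at 24 h against 16.8 to 24.1 CPM, and Hoxc8 was high in it, with 66.2 to 73.5 CPM against 31.8 to 38.9 CPM. Neither pair of ranges overlapped.

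At 24 h no Hox gene passed the test at either dose in any population unless the animal entered the fit. By edgeR's quasi-likelihood test, adjusted over all genes, no member of 27 passed at 10 Gy in C56BL6 (0.007% of all genes passed) and none of 28 at 20 Gy (0.0895%). In A. cahirinus none of 27 passed at 10 Gy (3.73%) or at 20 Gy (3.59%), and in wild mouse none of 29 at either dose (0.0% and 0.0%). At an unadjusted p under 0.05 there were 2 and 4 members in C56BL6, 1 and 4 in A. cahirinus and 0 and 0 in wild mouse, and DESeq2 called none of them in any of these 6 comparisons. With the animal as a block, 2 of 27 and 7 of 28 passed in C56BL6 (11.5% and 17.6% of all genes), and 4 of 27 at each dose in A. cahirinus (27.6% and 24.1%). In wild mouse 0 and 1 of 29 passed with the block (0.0% and 12.5%), and 4 and 1 with the block and without replicate 1 (23% and 16.6%). Without the block the spread among the wild cultures, a median of 98.5% of the sum of squares of the wild members, is in the error of the test.

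The blocked changes at 24 h were all under 0.42 log2 units in C56BL6 and A. cahirinus. Hoxd8, a trunk gene, passed at both doses in both. Values in parentheses here and below are log2 fold changes, with their standard error where one is given. In untreated C56BL6 libraries it read 21.4, 19, 19.4 and 16.7 CPM in replicates 1 to 4, and at 20 Gy 17, 16.1, 13.8 and 12.1 CPM. That is a blocked log2 fold change of -0.41 ± 0.0707, adjusted p = 0.00131, with every irradiated library below its untreated pair. In A. cahirinus it read 23.4, 18.5, 24.2 and 28.5 CPM untreated and 17.9, 14.8, 19.7 and 21.1 at 20 Gy (-0.33 ± 0.068, adjusted p = 0.00634). Hoxb3 rose in A. cahirinus with the block, by 0.33 log2 units at 10 Gy and 0.36 at 20 Gy (adjusted p = 0.00276 and 0.00809). Its libraries read 19.1, 15.4, 16.5 and 15.2 CPM untreated and 24.1, 21.8, 20.2 and 17.4 at 20 Gy, higher in each animal. At 10 Gy it read 23.3, 18, 21.3 and 18.8 CPM, and Hoxd8 19.1, 14.7, 20.1 and 24.2 CPM there and 16.8, 15.2, 14.7 and 15.5 CPM in C56BL6, so that Hoxb3 was higher and Hoxd8 lower than untreated in each animal at that dose too. Hoxa10 fell with the block at 20 Gy, from 20.0, 9.19, 21.5 and 24.1 to 17, 8.42, 16.8 and 18.8 CPM (-0.25), lower in each animal though the groups overlapped.

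At 10 Gy Hoxa4 of A. cahirinus fell with the block from 3.83, 3.11, 4.5 and 5.57 to 2.33, 2.62, 3.28 and 4.28 CPM (-0.41) and Hoxa9 from 28.2, 15.3, 30.5 and 32.1 to 22.9, 12.7, 25 and 30.5 (-0.20), again lower in each animal with overlapping groups.

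Hoxc8, the leading Hox gene of C56BL6, was lower with the block at both doses at 24 h (-0.17 and -0.23). It read 67.9, 156, 117 and 141 CPM untreated, 61, 138, 105 and 127 at 10 Gy and 63.8, 145, 93.7 and 117 at 20 Gy, so that the doses lay within the spread between the animals but below untreated cells of the same number. Hoxb9 read 66.1, 67.5, 84.8 and 86.8 CPM untreated and 57.9, 57.6, 75 and 73 at 20 Gy (-0.24 ± 0.0453, adjusted p = 0.00245). Hoxb8 went from 16.9, 14.4, 15.3 and 17.4 to 13.3, 13, 13.7 and 12.1 CPM (-0.33), every library at 20 Gy being below every untreated one. Hoxa3, Hoxa5 and Hoxb6 rose with the block at 20 Gy, higher in each animal with overlapping groups. Hoxa3 read 3.58, 8.02, 4.99 and 6.23 and 4.3, 9.64, 7.37 and 8.46 CPM (0.36), Hoxa5 3.65, 4.36, 4.63 and 4.95 and 4.79, 6.14, 5.97 and 5.85 (0.34) and Hoxb6 14.8, 11.5, 11 and 12.9 and 18.1, 14.1, 15.6 and 16 (0.32) untreated and at 20 Gy. In wild mouse Hoxc13 read 0.184, 24.1, 0.0314 and 28.6 CPM untreated and 1.22, 40.8, 0.0357 and 38.2 at 20 Gy, high in replicates 2 and 4 alone, and passed with the block (0.75), and without replicate 1 as well (0.56, adjusted p = 0.0139).

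At 12 d Hoxb9, Hoxc5 and Hoxc13 were higher in C56BL6 cells after 10 Gy and after 20 Gy, and Hoxd8 was lower after 20 Gy, each against the same 4 untreated libraries. At 10 Gy 4 of 27 members were called, all higher (20.9% of all genes, 10.3% up and 10.6% down), and with the animal as a block 8, of which 7 were higher (38.8% of all genes, 19.2% up and 19.7% down). At 20 Gy 4 of 27 were called, 3 higher and 1 lower (26.5% of all genes, 13% up and 13.6% down), and with the block 10, of which 8 were higher (47.5% of all genes, 23.2% up and 24.3% down). At each dose the share of the members called lies below that of all genes. The median log2 fold change of the 27 members was 0.21 at 20 Gy, against -0.01 over all genes. The library scaling of the fit (TMM) moved these log2 fold changes by -0.13 at 10 Gy and -0.12 at 20 Gy from those of plain CPM. Between 20 Gy and 10 Gy no member of 27 was called (0.0% of all genes), by edgeR or DESeq2 or with the block (0.297%), and none had an unadjusted p under 0.05.

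Hoxc13 had the largest change of the called members. It read 4.72, 2.94, 1.79 and 1.05 CPM in the untreated libraries of replicates 1 to 4, 13.2, 11.7, 6.22 and 5.94 at 10 Gy and 17.1, 12.1, 6.86 and 5.86 at 20 Gy. Every irradiated library lay above all untreated ones, and replicate 1 was the highest in each group. The log2 fold change was 1.69 ± 0.486, adjusted p = 0.0421 at 10 Gy and 1.88 ± 0.518, adjusted p = 0.0309 at 20 Gy. Hoxb9, a gene of the lower chest, read 33.6, 50.9, 51.3 and 51.9 CPM untreated, 72.1, 69.7, 76.9 and 74.6 at 10 Gy and 78, 71.5, 71.5 and 76.2 at 20 Gy. Again no irradiated library was as low as an untreated one (0.52 ± 0.137, adjusted p = 0.0323, and 0.55 ± 0.135, adjusted p = 0.0209).

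Hoxc5, a gene of the neck level, read 13.5, 14.5, 12.2 and 13.6 CPM untreated and 24, 18.3, 16.7 and 18.5 at 20 Gy (0.41 ± 0.119, adjusted p = 0.0367), and 19.3, 19.4, 17.5 and 19.4 at 10 Gy (0.37 ± 0.0852, adjusted p = 0.0204). Hoxd8 was the member that fell at 20 Gy, from 20.7, 26, 29.9 and 27.8 CPM to 24.2, 20.0, 21.2 and 20.1 (-0.41 ± 0.124, adjusted p = 0.0441), although replicate 1 alone had a higher value after 20 Gy. With the block Hoxa7 was also lower (-0.26 at 10 Gy, where it read 18.8, 20.1, 22.9 and 24.1 CPM, and -0.23 at 20 Gy) and Hoxb6 higher (0.41 and 0.40). Hoxa4 and Hoxb4 passed with the block at 10 Gy (0.73 and 0.33), and Hoxa5, Hoxb5 and Hoxc6 at 20 Gy (0.49, 0.51 and 0.24). Hoxa4 read 0.708, 1.45, 0.835 and 1.18 CPM untreated and 1.58, 2.58, 1.88 and 1.48 at 10 Gy, and Hoxb4 12, 13.3, 10.8 and 12.4 and 17.9, 17.7, 15.2 and 15.6, in both without overlap. Hoxb6 read 14.9, 13.4, 10.7 and 11.2 and 26.9, 18.3, 14.8 and 14.7, higher in each animal. Hoxb5 read 5.46, 3.36, 2.81 and 3.81 CPM untreated and 11, 5.1, 4.22 and 4.64 CPM at 20 Gy, replicate 1 standing apart. Of the calls made without the block, each was lost in 3 of the 4 fits that left out a replicate number: without replicate 2, 3 or 4 no member was called at either dose, and without replicate 1 there were 5 at 10 Gy and 4 at 20 Gy. The share of all genes called in these fits is not given here.

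**Figure D4:**
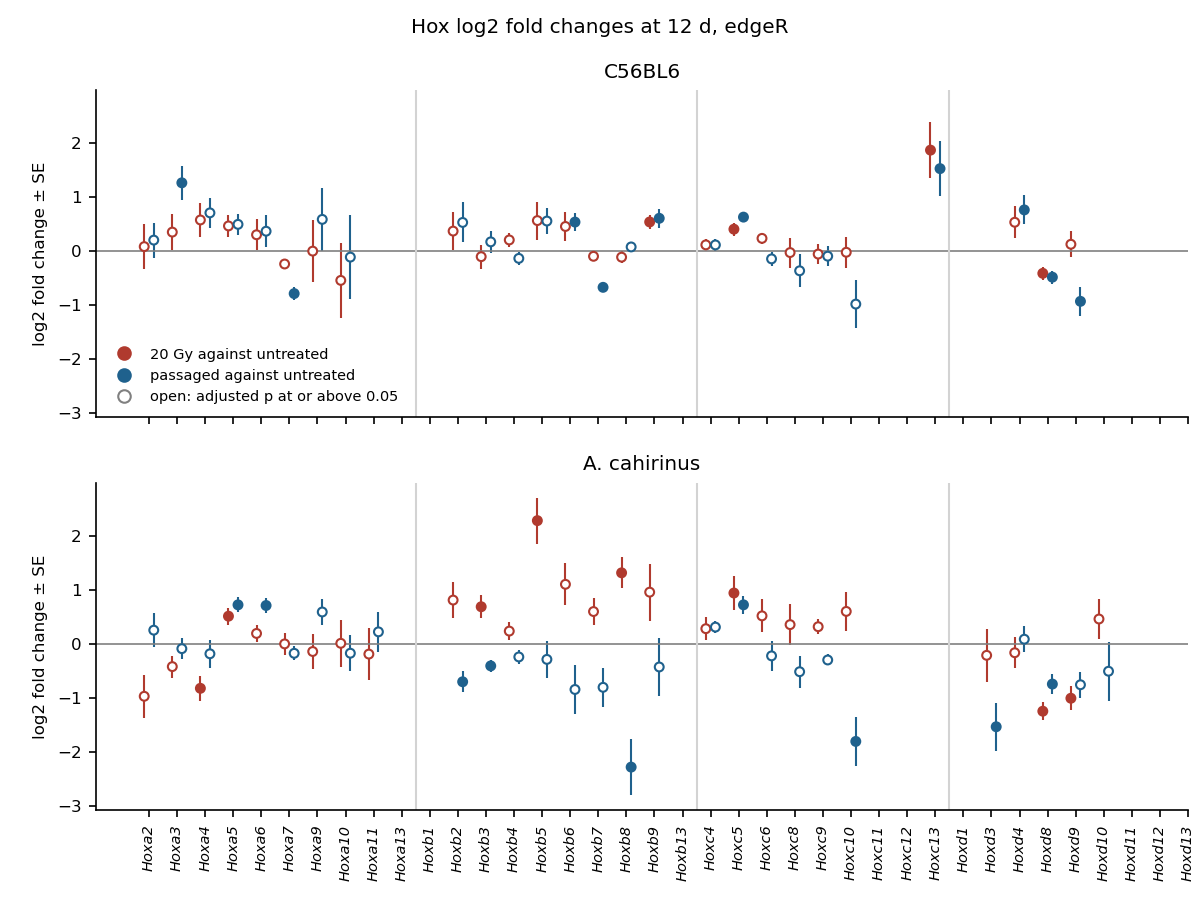
Hox log2 fold changes at 12 d: the log2 fold change with its standard error (vertical axis) of the Hox genes shown (horizontal axis, in cluster order) at 20 Gy (red) and after passaging (blue) against the same 4 untreated libraries, in C56BL6 and A. cahirinus. Filled points have an adjusted p under 0.05, and Hoxb5, Hoxb8, Hoxd8 and Hoxd9 stand out in A. cahirinus and Hoxc13 in C56BL6.

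In A. cahirinus cells at 12 d, Hoxa5, Hoxb3, Hoxb5, Hoxb8 and Hoxc5 were higher and Hoxa4, Hoxd8 and Hoxd9 lower after 20 Gy. Of 29 members 8 were called, 5 higher and 3 lower (31.8% of all genes, 13.8% up and 18.1% down), and 14 with the animal as a block, 9 higher and 5 lower (49.2% of all genes, 23.5% up and 25.7% down). Leaving out replicate 1, 2, 3 or 4 gave 2, 10, 2 and 3, and the share of all genes called in these fits is not given here. With all replicates, the share of the members called is near that of all genes. The median log2 fold change of the 29 was 0.29, against 0.00 over all genes. At 10 Gy none of 29 was called by edgeR (2.87% of all genes), 3 had an unadjusted p under 0.05, DESeq2 called 2, leaving out replicate 2 gave 3 and the block gave 6, 3 in each direction (27.5% of all genes, 14.2% up and 13.4% down). Between 20 Gy and 10 Gy edgeR called none of 29 (0.457% of all genes), 4 had an unadjusted p under 0.05, DESeq2 called 1, leaving out replicate 2 gave 4, and the block gave 10, with 7 higher and 3 lower at 20 Gy (17.9% of all genes, 8.26% up and 9.62% down). For the fits without replicate 2 in these 2 comparisons the share of all genes is not given either. These comparisons share libraries and their values are given side by side.

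Hoxb5, a gene of the neck and chest level, read 1.58, 0.935, 0.74 and 1.1 CPM in the untreated libraries of replicates 1 to 4, 5.07, 1.92, 1.91 and 3.67 at 10 Gy and 7.99, 1.95, 5.39 and 6.14 at 20 Gy. Each irradiated library lay above all untreated ones. The log2 fold change was 2.29 ± 0.426, adjusted p = 0.00519 at 20 Gy and, with the block, 1.48 ± 0.191, adjusted p = 0.00247 at 10 Gy. Hoxb8 was low throughout but rose in each animal, from 0.652, 1.31, 0.775 and 0.782 CPM to 2.15, 2.32, 1.7 and 2.71 (1.32 ± 0.285, adjusted p = 0.00959). Without replicate 1, 3 or 4 in turn this call was lost, up to an adjusted p of 0.0811.

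Hoxd8 fell. It read 40.5, 27.4, 43.2 and 43.1 CPM untreated, 21, 17.4, 27.7 and 32.3 at 10 Gy and 15.1, 14.9, 15 and 20.3 at 20 Gy, and no 20 Gy library was as high as an untreated one (-1.24 ± 0.167, adjusted p = 0.00126). The block gave -0.66 ± 0.0911, adjusted p = 0.00293 at 10 Gy. Its neighbour Hoxd9 went from 22.9, 15.3, 25.3 and 27.8 CPM untreated to 9.38, 8.78, 12.2 and 15.5 at 20 Gy (-1.0 ± 0.221, adjusted p = 0.0104), lower in each animal though the groups overlapped, replicate 4 at 20 Gy being above replicate 2 untreated. Hoxb5 and Hoxd8 kept their calls without each replicate in turn.

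The promoters of Hoxb8, Hoxd8 and Hoxd9 are shown because these had the largest changes of the 4 called members of A. cahirinus with an entry in the RefSeq promoter table, which covers the mouse genome. The fourth, Hoxa5, is not shown. They are mouse sequences on GRCm38.p6, the 250 bases before the gene's start, 5′ to 3′ on the gene's strand, and not those of the cells in which the changes were measured. Capitals mark matches, on either strand, to the Hox and Pbx type motif TGATNNAT, the TATA box TATAAA and the CCAAT box CCAAT. They lay at chr11:96281655-96281904, chr2:74704365-74704614 and chr2:74697513-74697762, all on the plus strand.
Hoxb8: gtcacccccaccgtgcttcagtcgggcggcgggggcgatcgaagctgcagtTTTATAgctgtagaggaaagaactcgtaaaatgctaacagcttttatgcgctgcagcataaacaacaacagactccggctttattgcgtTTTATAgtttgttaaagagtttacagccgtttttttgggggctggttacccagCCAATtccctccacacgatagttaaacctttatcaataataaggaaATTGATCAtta
Hoxd8: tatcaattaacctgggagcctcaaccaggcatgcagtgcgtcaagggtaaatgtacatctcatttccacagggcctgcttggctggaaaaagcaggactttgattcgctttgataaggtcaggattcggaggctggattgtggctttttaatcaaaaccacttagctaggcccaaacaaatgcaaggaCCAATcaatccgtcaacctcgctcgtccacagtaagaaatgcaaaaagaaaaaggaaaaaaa
Hoxd9: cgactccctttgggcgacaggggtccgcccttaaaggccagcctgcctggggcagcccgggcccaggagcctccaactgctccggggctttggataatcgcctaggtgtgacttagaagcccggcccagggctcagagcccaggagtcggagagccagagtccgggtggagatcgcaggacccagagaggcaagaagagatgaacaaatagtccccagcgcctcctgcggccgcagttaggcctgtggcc
Hoxb8 held 1 match to the Hox and Pbx type motif, 2 to the TATA box and 1 to the CCAAT box, Hoxd8 held 1 CCAAT box, and Hoxd9 held none of the 3. Among all 32851 RefSeq promoters given, 7.68% held the first motif, 12.4% the second and 33.8% the third. Of the 24 Hox promoters, which belong to 22 members, the numbers were 4, 4 and 14. A match of letters is a description and not a binding site.

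Hoxb3, one of the neck-level genes of HoxB, also rose after 20 Gy, from 34.3, 26.7, 31.1 and 35.7 CPM to 55.1, 29.3, 59.7 and 63.8 (0.69 ± 0.213, adjusted p = 0.0378), with little change in replicate 2. Hoxc5 went from 11.4, 16.9, 11.8 and 12.2 CPM to 19.3, 42.4, 19.9 and 18.4 (0.95 ± 0.312, adjusted p = 0.0484), with replicate 2 highest in both groups. Hoxa5 was higher (0.52 ± 0.158, adjusted p = 0.0366), a call lost in each of the 4 fits that left out a replicate number, and Hoxa4 lower (-0.82 ± 0.233, adjusted p = 0.0285). Hoxb2, a hindbrain-level gene, read 49.9, 28, 43.9 and 42.9 CPM untreated and 88.3, 28.9, 79.8 and 95.1 at 20 Gy, nearly the same in replicate 2 and higher in the other 3, and passed with the block alone (0.73 ± 0.156, adjusted p = 0.00818). Hoxb6, Hoxb7 and Hoxc6 also rose with the block alone (1.23, 0.64 and 0.49), and Hoxa2 and Hoxa3 fell (-0.94 and -0.41). Hoxa3 read 9.1, 12, 9.33 and 14.6 CPM untreated and 6.57, 9.14, 7.77 and 10.4 at 20 Gy.

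At 10 Gy the blocked calls in A. cahirinus were Hoxb2 (0.35), Hoxb5 (1.48) and Hoxc5 (0.65) upward and Hoxd3 (-0.78), Hoxd8 (-0.66) and Hoxd9 (-0.45) downward. Hoxb2 read 72.2, 26.7, 51.5 and 68.4 CPM at 10 Gy, Hoxc5 19.4, 35.8, 15.2 and 15.5 and Hoxd9 14.4, 10.4, 20.3 and 22.8. Hoxd3 read 1.65, 1.4, 1.83 and 3.94 CPM untreated and 0.943, 0.892, 1.004 and 2.26 at 10 Gy, lower in each animal. For Hoxd9 each animal lay between its untreated and its 20 Gy level. From 10 Gy to 20 Gy they were Hoxb2, Hoxb3, Hoxb5, Hoxb6, Hoxb7, Hoxc6 and Hoxc8 upward, by 0.31 (Hoxc8) to 1.09 (Hoxb6), and Hoxa4 (-0.76), Hoxd8 (-0.57) and Hoxd9 (-0.55) downward. Hoxb3 read 47.5, 24.8, 29.4 and 38.9 CPM and Hoxb7 3.56, 4.66, 2.1 and 4.28 CPM at 10 Gy. Markers of dividing cells moved with the dose: the 5 genes examined summed to 211 to 288 CPM in untreated, 87.8 to 275 CPM in 10 Gy and 44.9 to 55.2 CPM in 20 Gy libraries of A. cahirinus at 12 d, and to 268 to 524 CPM in passaged ones. In C56BL6 they summed to 44.4 to 228, 36.6 to 144, 27.4 to 72.4 and 493 to 707 CPM. Muscle markers differed between these groups too. In A. cahirinus at 12 d the 4 genes summed to 2366 to 4907 CPM in untreated, 2300 to 6815 in 10 Gy, 1504 to 8166 in 20 Gy and 1665 to 3301 in passaged libraries, replicate 2 being the lowest in each group. In C56BL6 they summed to 7.50 to 29.3, 15.2 to 54.6, 12.1 to 54.2 and 85.8 to 189 CPM. The part of either marker list in the Hox results was not tested.

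**Figure D5:**
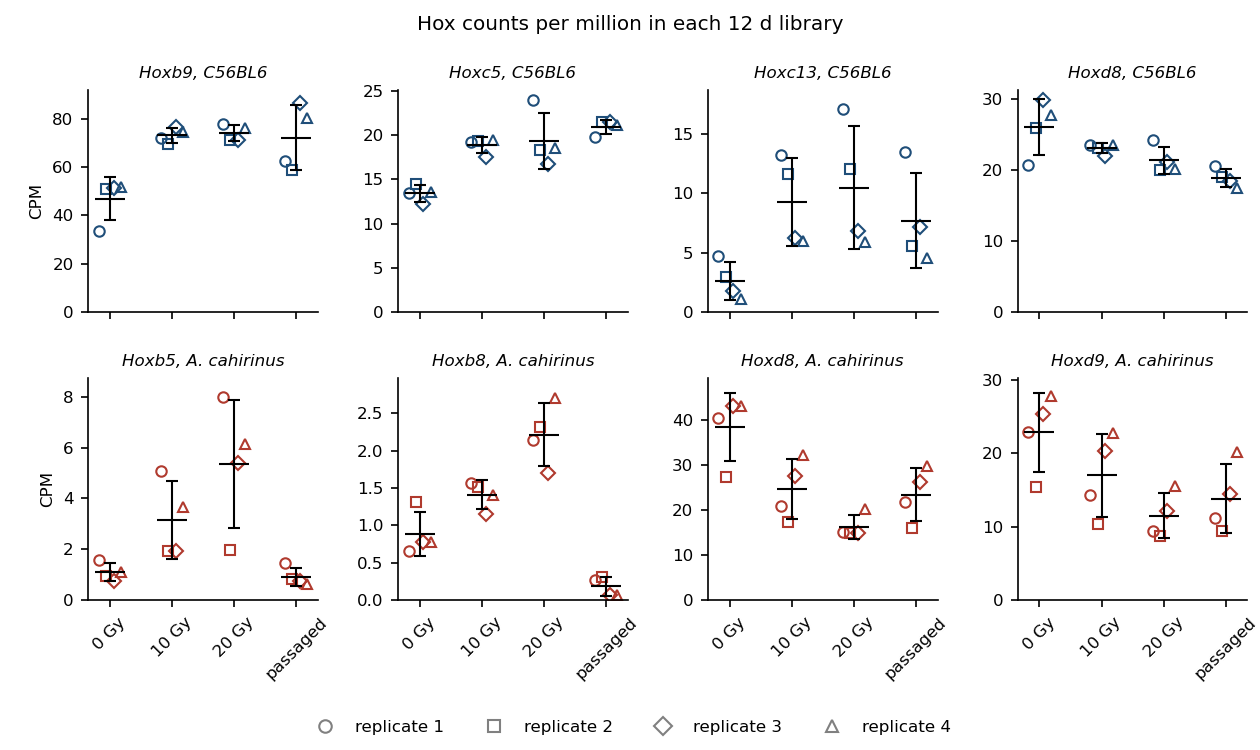
Hox levels in each 12 d library: CPM (vertical axis, from 0) by treatment (horizontal axis) for 4 members in C56BL6 (blue) and 4 in A. cahirinus (red), with symbol shape for the replicate number and black bars for the mean ± SD of 4 libraries. Hoxc13 in C56BL6 is higher in all 8 irradiated than in all 4 untreated libraries, and Hoxd8 in A. cahirinus is lower in all 4 libraries at 20 Gy.

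In passaged C56BL6 cells Hoxa3, Hoxb6, Hoxb9, Hoxc5, Hoxc13 and Hoxd4 were among the members that were higher, and Hoxa7, Hoxb7, Hoxd8 and Hoxd9 lower, than in unpassaged untreated cells of the same day. Of 27 members 11 were called, 7 higher and 4 lower (49.6% of all genes, 24.2% up and 25.5% down), and 18 with the block, 12 higher and 6 lower (60.1% of all genes, 29.3% up and 30.8% down). Without the block the share of the members called lies below that of all genes. All 4 passaged libraries had higher muscle marker sums than any untreated one, as given above. Leaving out replicate 1, 2, 3 or 4 gave 12, 6, 4 and 5, and the share of all genes called in these fits is not given here. Hoxa3, a gene of the throat level, read 2.66, 4.14, 2.04 and 4.1 CPM untreated and 4.94, 11, 7.43 and 7.78 passaged (1.27 ± 0.314, adjusted p = 0.0108). Hoxc5 read 19.8, 21.5, 21.5 and 21.1 CPM passaged (0.63 ± 0.0827, adjusted p = 0.000755). All 4 passaged libraries lay above all 4 untreated ones for both genes. Hoxa3 shares 27.1% of its exon bases with another gene.

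Hoxa7 and Hoxb7, paralogs of the chest level, both fell. Hoxa7 went from 21.9, 21.6, 23.4 and 27.2 CPM untreated to 14.7, 11.6, 12.8 and 16 passaged (-0.78 ± 0.125, adjusted p = 0.00168), and Hoxb7 from 24.5, 20.7, 22.5 and 22.4 to 15.7, 13.3, 13.6 and 14.6 CPM (-0.67 ± 0.0907, adjusted p = 0.000877), with no overlap between the groups. Hoxa7, Hoxb7 and Hoxc5 kept their calls without each replicate in turn. Hoxc13, at 13.5, 5.57, 7.17 and 4.55 CPM passaged, was also higher (1.53 ± 0.505, adjusted p = 0.0346), though passaged replicate 4 lay below untreated replicate 1. Hoxd8 was 20.6, 19.1, 18.4 and 17.4 CPM passaged and lower (-0.48 ± 0.122, adjusted p = 0.0123). Hoxb6, Hoxb9 and Hoxd4 were called higher (0.54, 0.61 and 0.77) and Hoxd9 lower (-0.93). The Hoxd4 call was lost in each of the 4 fits that left out a replicate number, and this gene shares 52.3% of its exon bases with another. Hoxc8 passed with the block alone, at 113, 235, 156 and 196 CPM untreated and 75.7, 187, 128 and 155 passaged (-0.39 ± 0.0808, adjusted p = 0.00634). With the block Hoxa4, Hoxa5, Hoxa9, Hoxb2 and Hoxb5 also rose, by 0.53 (Hoxa5) to 0.74 (Hoxa9), and Hoxc10 fell by 1.04 log2 units.

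Against passaged cells, 20 Gy cells of C56BL6 had 4 of 27 members called, 3 higher and 1 lower (41.6% of all genes, 20.4% up and 21.2% down), 10 with the block (56.1% of all genes, 28.3% up and 27.8% down) and 7 by DESeq2. Leaving out replicate 1, 2, 3 or 4 gave 8, 3, 1 and 3, and the share of all genes called in these fits is not given here. Hoxa7, Hoxb7 and Hoxd9 were higher at 20 Gy (0.52, 0.55 and 1.03). The 20 Gy libraries read 20.7, 22.2, 21.4 and 22.5 CPM for Hoxa7, 24.6, 21.4, 24 and 21.9 CPM for Hoxb7 and 7.27, 4.81, 5.1 and 3.5 CPM for Hoxd9, against 3.66, 2.07, 1.88 and 1.62 CPM for Hoxd9 in passaged cells. With the block Hoxb4, Hoxc6, Hoxc8 and Hoxc10 were also higher (0.31, 0.37, 0.34 and 1.03) and Hoxa3, at 3.14, 7.16, 3.55 and 4.04 CPM at 20 Gy, and Hoxa9 lower (-0.95 and -0.59). Hoxc6 read 73.2, 89.3, 74.9 and 85.4 CPM at 20 Gy and 44.9, 66.4, 59.1 and 59.2 passaged, with no overlap.

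In A. cahirinus 10 of 29 members were called in passaged against untreated cells, 4 higher and 6 lower (25.8% of all genes, 12.1% up and 13.6% down), and 16 with the block, 6 higher and 10 lower (49.5% of all genes, 23.2% up and 26.3% down). Leaving out replicate 1, 2, 3 or 4 gave 1, 15, 1 and 3, and the share of all genes called in these fits is not given here. Hoxa5, Hoxa6 and Hoxc5 were among those higher. Hoxa5 read 5.46, 6.13, 5.07 and 6.8 CPM untreated and 8.65, 10.4, 10.6 and 9.86 passaged (0.73 ± 0.138, adjusted p = 0.00773), Hoxa6 5.53, 6.08, 5.53 and 7.47 and 11.2, 8.66, 9.81 and 11.5 (0.72 ± 0.141, adjusted p = 0.00881), and Hoxc5 19.6, 25.6, 20.5 and 22.3 CPM passaged (0.73 ± 0.17, adjusted p = 0.0166). For these 3, picked from the called members, the groups did not overlap. Of the 29 members, 5 had all passaged libraries above all untreated ones and 4 had all below, and the share over all genes is not given here.

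Hoxb8 fell most in passaged A. cahirinus cells, to 0.274, 0.312, 0.0706 and 0.0725 CPM (-2.28 ± 0.519, adjusted p = 0.0153), below every untreated library. In replicates 3 and 4 the passaged level is under that of 3 counts (0.106 and 0.109 CPM), so the size of this change is uncertain. Hoxc10 and Hoxd3, with untreated means of 0.837 and 2.2 CPM, also fell (-1.80 and -1.53). Hoxb2 went to 32.8, 18.8, 24.1 and 27.3 CPM (-0.70 ± 0.192, adjusted p = 0.03), Hoxd8 to 21.7, 16.1, 26.2 and 29.8 CPM (-0.74 ± 0.19, adjusted p = 0.0241), and Hoxb3 was lower too (-0.40). Hoxb2 and Hoxd8 were lower than untreated in each animal. Members that passed with the block alone were Hoxd9, at 11.1, 9.46, 14.4 and 20.1 CPM passaged (-0.77 ± 0.0969, adjusted p = 0.000406), and Hoxc8, at 53.4, 89.1, 46 and 60.9 CPM untreated and 35.1, 67.4, 35.8 and 39.2 passaged (-0.52 ± 0.0686, adjusted p = 0.000504). Hoxb7 and Hoxc9 also fell with the block (-0.83 and -0.30), and Hoxa9 and Hoxc4 rose (0.60 and 0.32).

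Set directly against passaged cells, 20 Gy cells of A. cahirinus had 11 of 29 members called, 8 higher and 3 lower (42.5% of all genes, 19.5% up and 23% down), and 22 with the block, 14 higher and 8 lower (56% of all genes, 28% up and 28% down). Leaving out replicate 2 gave 19, and the other 3 numbers gave 7 or 8. The share of all genes called in these fits is not given here. Those called higher were, among others, Hoxb8 (3.58 ± 0.469, adjusted p = 0.00074), with a size as uncertain as above since passaged replicates 3 and 4 are under 3 counts, Hoxb5 (2.56 ± 0.451, adjusted p = 0.00287), Hoxb6 (1.93 ± 0.246, adjusted p = 0.000669), Hoxb2 (1.5), Hoxb7 (1.39) and Hoxb3 (1.08). Hoxb6 read 3.95, 3.73, 3.15 and 3.43 CPM at 20 Gy and 0.744, 1.32, 0.917 and 0.761 passaged, and Hoxb7 5.71, 5.83, 4.45 and 5.88 and 1.57, 2.91, 1.16 and 2.72 CPM. Passaged cells had 28.2, 22.4, 21.8 and 25.6 CPM of Hoxb3 and 1.45, 0.832, 0.741 and 0.616 CPM of Hoxb5. Every 20 Gy library was above every passaged one for these 4 genes, while the groups of Hoxb2 overlapped. The 4 genes were picked from the called members, so their separation adds nothing to the calls. Hoxc10 (2.39) and Hoxc9 (0.60) were higher as well. Hoxa2 (-1.24) and Hoxa6 (-0.53) were lower. Hoxa6 read 5.78, 6.49, 8.28 and 7.83 CPM at 20 Gy, all below the passaged libraries. With the block Hoxb4, Hoxb9, Hoxc6, Hoxc8, Hoxd3 and Hoxd10 were also higher (0.45 for Hoxb4 to 1.35 for Hoxb9) and Hoxa3, Hoxa4, Hoxa9, Hoxa11 and Hoxd8 lower (-0.35 for Hoxa3 to -0.80 for Hoxa9). Hoxa9 read 20.2, 8.51, 23.7 and 25.1 CPM at 20 Gy and 36.7, 19.5, 34.6 and 38.9 passaged.

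Whether a treatment acted differently in the 2 species was tested as an interaction over the 18109 symbols that both tables share. A fold change within a species cancels gene length. It does not cancel the effect of an overlapping gene whose own level changes. For 20 Gy at 24 h none of 30 members was called by edgeR between A. cahirinus and C56BL6 (2.09% of all genes), 3 had an unadjusted p under 0.05, DESeq2 called 2 (3.71%), and the block gave 4 (16.8%). For 20 Gy at 12 d 5 of 30 were called, 2 higher and 3 lower in A. cahirinus (18.8% of all genes, 8.11% up and 10.7% down), and 9 with the block (38%). Without replicate 1, 2, 3 or 4 of both the counts were 2, 4, 1 and 1 (15.2%, 17.1%, 4.33% and 6.7% of all genes). Hoxb8 (1.43 ± 0.287, adjusted p = 0.00427) and Hoxb5 (1.71 ± 0.563, adjusted p = 0.0474) rose more in A. cahirinus. Hoxa4 (-1.39 ± 0.403, adjusted p = 0.0279), Hoxd9 (-1.13 ± 0.324, adjusted p = 0.0266) and Hoxd8 (-0.83 ± 0.211, adjusted p = 0.0152) fell more in it or rose less. Hoxd8 was called lower in both species, and its fall was the greater in A. cahirinus. Hoxb8 in C56BL6 had a log2 fold change of -0.11 (adjusted p = 0.491), and Hoxd9 of 0.13 (adjusted p = 0.719). With the block Hoxb3 and Hoxb7, more upward in A. cahirinus, and Hoxa3, more downward, passed as well.

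For passaging 6 of 30 members were called between A. cahirinus and C56BL6 (27.7% of all genes, 13.4% up and 14.3% down), and 10 with the block (45.2%). Without replicate 1, 2, 3 or 4 of both the counts were 4, 3, 1 and 1 (27.9%, 20.4%, 9.25% and 12.5% of all genes). Hoxd3 (-2.59 ± 0.734, adjusted p = 0.0182), Hoxb8 (-2.37 ± 0.448, adjusted p = 0.00194), Hoxb6 (-1.39 ± 0.475, adjusted p = 0.0417), Hoxa3 (-1.36 ± 0.385, adjusted p = 0.0179) and Hoxb2 (-1.25 ± 0.413, adjusted p = 0.0368) had the lower fold change in A. cahirinus, and Hoxa7 (0.61 ± 0.179, adjusted p = 0.0223) the higher. The sizes for Hoxb8 and for Hoxd3, whose untreated C56BL6 mean is 0.0838 CPM, rest on few counts. In mouse Hoxd3, Hoxb2, Hoxa3 and Hoxa7 share 62.8%, 27.3%, 27.1% and 20.4% of their exon bases with other genes. Without strand in the counting, reads of overlapping genes cannot be told apart, and their part in these differences was not tested. Hoxb8 kept its call without each replicate number in turn, and the others lost theirs in at least 1 case. Between A. cahirinus and wild mouse no member was called for 20 Gy at 24 h (31 members tested, 0.0% of all genes), 20 Gy at 12 d (32 members, 3.35%) or passaging (32 members, 3.46%), by edgeR or DESeq2, and none had an unadjusted p under 0.05. Without the block the spread among the wild cultures enters the error of these fits. Animal number held a median of 98.5% of the sum of squares of the wild members at 24 h and 97.7% at 12 d, and treatment 0.365% and 1.12%. A missing call here therefore does not show that the species responded alike. With the block the counts were 0 (7.25% of all genes), 4 (23.3%) and 7 (23.8%), and with the block but without replicate 1 of both they were 0 (7.06%), 0 (7.63%) and 2 (8.6%).

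In wild mouse at 12 d no Hox gene passed the test without the block. That test has the spread among the cultures in its error. Animal number held a median of 97.7% of the sum of squares of the wild members and treatment 1.12%, so a missing call does not show that a member was unchanged. None of 29 was called at 10 Gy (0.264% of all genes), at 20 Gy (0.0694%), between the doses (0.0%), after passaging (10.7%) or between 20 Gy and passaged cells (10.5%), by edgeR or DESeq2, and at an unadjusted p under 0.05 there were 0, 0, 0, 0 and 1. With the animal as a block 2, 2, 0, 6 and 6 were called (12.7%, 15.4%, 0.257%, 31.9% and 38% of all genes), and with the block but without replicate 1 they were 1, 0, 0, 2 and 4 (2.52%, 2.0%, 0.0538%, 13.7% and 28.2%).

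At 12 d after radiation the members called in wild mouse with the block were Hoxb9 and Hoxc13, both of which were also called in C56BL6. Hoxb9 read 57.4, 0.912, 20.7 and 46 CPM untreated and 89.6, 4.3, 31.9 and 90.7 at 20 Gy, and Hoxc13 16.5, 14.6, 0.0331 and 16.2 and 31.5, 35.7, 0.139 and 29.7. Each number was higher at 20 Gy for both genes, Hoxc13 in replicate 3 being under 3 counts untreated. The blocked log2 fold changes were 0.89 ± 0.181, adjusted p = 0.0223 for Hoxb9 and 0.88 ± 0.12, adjusted p = 0.00816 for Hoxc13, and without replicate 1 they were 1.04 (adjusted p = 0.0737) and 0.89 (adjusted p = 0.0673). At 10 Gy Hoxb9 read 83.6, 2.61, 34.2 and 86 CPM and Hoxc13 30.8, 30.5, 0.225 and 24.6, and the blocked values were 0.71 and 0.69 (adjusted p = 0.0118 and 0.0348), while without replicate 1 they were 0.82 (adjusted p = 0.038) and 0.66 (adjusted p = 0.201).

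After passaging the blocked calls in wild mouse were Hoxb9 (0.97) and Hoxc13 (0.86) upward and Hoxa7 (-0.61), Hoxb7 (-0.58), Hoxd8 (-0.78) and Hoxd9 (-1.51) downward, and without replicate 1 Hoxb9 and Hoxa7 passed. Hoxa7 read 7.78, 10.6, 37.3 and 7.4 CPM untreated and 5.51, 9.36, 19.9 and 5.23 passaged, and Hoxd9 2.29, 12.6, 0.166 and 3.69 and 0.555, 6.99, 0.129 and 1.1. Both were lower in each number. Hoxb7 read 15.6, 0.14, 19.8 and 16.1 untreated and 11.6, 0.037, 13.4 and 10.5 passaged, lower in each number as well. Hoxd8 read 13.2, 31.2, 0.563 and 18.4 and 5.04, 33.9, 0.451 and 9.8, higher in replicate 2 and lower in the other 3. Passaged cells had 98, 2.92, 36.2 and 101.01 CPM of Hoxb9, higher than untreated in each number, and 36.4, 28.4, 0 and 32.4 CPM of Hoxc13, higher in each but replicate 3.

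Against passaged cells Hoxa7, Hoxb4, Hoxc6, Hoxc8 and Hoxd9 of wild mouse were higher at 20 Gy with the block (0.61 for Hoxb4 to 0.97 for Hoxd9). Hoxc8 read 88.7, 15.6, 0.0693 and 92.5 CPM at 20 Gy and 51.3, 9.66, 0 and 58.4 passaged, with replicate 3 under 3 counts in both. Hoxc6 read 42, 14.3, 0.45 and 51.1 at 20 Gy and 26.1, 10.1, 0.161 and 29 passaged, and Hoxb4 11.9, 0.403, 31.3 and 12.6 and 7.61, 0.703, 17.4 and 6.89. At 20 Gy Hoxa7 read 9.04, 17.8, 26.3 and 8.35 and Hoxd9 1.53, 14.9, 0.104 and 1.998 CPM. Hoxa7 and Hoxc6 were higher than passaged in each number, Hoxb4 in each but replicate 2 and Hoxd9 in each but replicate 3. Without replicate 1 Hoxa7, Hoxc6 and Hoxc8 passed.

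Wild mouse was set against C56BL6 within the mouse table in 3 groups. In untreated cells at 24 h 2 of 28 members were called, both lower in wild mouse (5.7% of all genes, 3.32% up and 2.38% down): Hoxc4 (-2.76 ± 0.589, adjusted p = 0.0347) and Hoxc5 (-3.58 ± 0.799, adjusted p = 0.0394). Hoxc5 read 17.9, 22.2, 20.5 and 21.4 CPM in C56BL6 and 0.215, 2.08, 0.377 and 3.97 CPM in wild mouse, and Hoxc4 15.5, 20.8, 18.2 and 21.6 and 0.767, 4.23, 0.973 and 4.95 CPM, both without overlap. Both calls were lost when any 1 replicate number was left out. In untreated cells at 12 d none of 29 was called by edgeR (2.93% of all genes), 5 had an unadjusted p under 0.05 and DESeq2 called 3 (7.59%). In passaged cells the same pair was called of 29 (15.1% of all genes, 7.94% up and 7.12% down), at -2.10 and -2.68 log2 units, and DESeq2 called 5 (23.1%). There edgeR called 9 without replicate 3 (14.9% of all genes) and 0 without any other (3.9% to 5.55%). At 12 d untreated, leaving out replicate 3 gave 3 (2.62% of all genes).

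Partners and regulators of the Hox genes were described by their counts. Of the 9 cofactor genes, all tested, 2 fell and none rose at 20 Gy in C56BL6 at 12 d (26.5% of all genes called), namely Pknox2 (-1.64 ± 0.406, adjusted p = 0.0208) and Pbx3 (-0.35 ± 0.0901, adjusted p = 0.0228). In A. cahirinus 3 of 9 fell and none rose (31.8%), among them Meis1 (-0.71 ± 0.112, adjusted p = 0.0025) and Pknox1 (-0.59 ± 0.122, adjusted p = 0.00793). After passaging 3 fell in C56BL6 (49.6%), among them Pknox2 (-1.19 ± 0.366, adjusted p = 0.0266), and 2 in A. cahirinus (25.8%), Pknox2 and Pbx2. No cofactor gene rose in these 4 comparisons.

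Of the 29 regulators, which are Polycomb and Trithorax genes and genes of retinoic acid, Cdx and Gdf11 signalling, 26 were tested in C56BL6 at 12 d. At 20 Gy 2 rose and 6 fell (26.5% of all genes called), with Cyp26b1, an enzyme that breaks down retinoic acid (1.60 ± 0.503, adjusted p = 0.0483), and Kmt2a upward and Cbx6, a Polycomb reader (-0.95 ± 0.0845, adjusted p = 0.000933), Pcgf2, Cbx7, Men1, Rara and Ctcf downward. In A. cahirinus 1 of 27 rose, Gdf11, a signal that turns on hind-body Hox genes in the embryo (1.21 ± 0.138, adjusted p = 0.000638), and 11 fell (31.8%), led by Cbx2 (-1.22 ± 0.212, adjusted p = 0.00385), Phc1 and Ezh2, the Polycomb methyltransferase (-0.90 ± 0.154, adjusted p = 0.00363). After passaging 6 rose and 6 fell in C56BL6 (49.6%), with Ezh2 (1.64 ± 0.221, adjusted p = 0.000829) and Suz12 upward and Cbx7 (-2.53 ± 0.25, adjusted p = 0.000309) downward, while none rose and 5 fell in A. cahirinus (25.8%), led by Cbx2. Ezh2 transcripts are known to follow cell division. The sums of the markers of dividing cells are given above, and their part in the Ezh2 values was not tested. Ezh2 was not among the regulators called at 20 Gy in C56BL6.

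Of the 22 limb and skin position factors, no member of those tested was called at 20 Gy in C56BL6 (19 tested, 26.5% of all genes called) or A. cahirinus (20 tested, 31.8%) at 12 d by edgeR without the block. With the block 3 fell in C56BL6 (47.5% of all genes called, 24.3% down). In A. cahirinus 5 rose and 2 fell with it (49.2% of all genes called, 23.5% up and 25.7% down). After passaging 6 of 18 fell and none rose in C56BL6 (49.6%), among them Shox2 (-1.69 ± 0.468, adjusted p = 0.0175), En1 (-1.20 ± 0.207, adjusted p = 0.00228) and Tbx5 (-0.83 ± 0.157, adjusted p = 0.00338). In A. cahirinus 1 of 19 rose, Prrx2, and 2 fell, Twist1 and Irx3 (25.8%). The animal terms were called for 14 of 17 of these factors in wild mouse at 24 h (37% of all genes) and 16 of 18 at 12 d (67%), and without replicate 1 for 17 of 17 (67.1%) and 16 of 18 (59.6%).

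Non-coding genes of the clusters were counted in mouse. Of 15 such genes examined 7 were tested in passaged C56BL6 cells, and 4 rose while none fell (24.2% of all genes rose and 25.5% fell): Hotairm1, an RNA transcribed from the head-side end of HoxA (1.32 ± 0.235, adjusted p = 0.00261), Hoxaas2 (1.09 ± 0.375, adjusted p = 0.0409), Hoxb3os (0.98 ± 0.34, adjusted p = 0.0418) and Mir196a-1 (0.95 ± 0.309, adjusted p = 0.0329). Hotairm1 and Hoxaas2 rose in the comparison in which Hoxa3 did, and without strand in the counting, reads of overlapping genes cannot be told apart. None was called at 20 Gy against untreated cells. Mir196a-1 lies in HoxB, and its mature product is known to target several Hox messengers, so its sequence is shown, as given by RefSeq on GRCm38.p6 (chr11:96265187-96265208, plus strand), with the seed in capitals.
miR-196a-5p: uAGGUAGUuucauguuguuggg
The counts on this gene come from polyA RNA and do not measure the mature miRNA. In wild mouse it read 2.65 to 3.15 CPM in replicate 4 at 24 h, against 0 to 0.639 CPM in the other 3 numbers.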

How the data were processed

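PolyA RNA of 84 fibroblast cultures was sequenced with a stranded kit, per the labels' protocols. The authors deposited raw counts per gene, made with featureCounts 2.0.3 and no strand option, per the file headers (mouse: GRCm39, Ensembl release 108; A. cahirinus: AcoCah2, grouped by gene name). Trim Galore and HISAT2 are named in the submitters' processing notes, with versions not given in the sources used here. Mouse identifiers took symbols from GENCODE vM39 (56236 of 56980 matched). CPM and TPM were computed here from the deposited counts and the gene lengths in the files.

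Comparisons used edgeR 4.0.16 in R 4.3.3 (filterByExpr, TMM scaling, quasi-likelihood F test) with Benjamini-Hochberg adjustment over all genes tested and a threshold of 0.05. Fold changes use TMM scaling and can differ from ratios of the CPM printed beside them. The fits were tested on simulated data. Values are from the fit without a block unless said. The replicate number was the alternative block, and deviations from group means of same-numbered libraries correlated in every pair of groups within a population and time (r of at least 0.409, medians 0.658 to 0.861), so the number was taken to pair libraries, and blocked values stand beside the main ones where they differ. The labels do not say that numbers are animals. If they are not, p-values measure the spread between these cultures alone. Other alternatives were RLE scaling, no filter, DESeq2 1.42.0, all groups in one fit, irradiated libraries alone, each replicate left out and, added after the data were seen, the block without wild replicate 1 and the spread of wild mouse without it.

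The members, gene lists and tests were chosen with earlier results of these data known. Values are given for members past the threshold with or without the block, and, where more than 8 passed, per-library values for those with the largest changes and a mean of at least 5 CPM. Some genes that the counts include are not reported here. Per-library values of other members were chosen after their values were seen. Whether the groups of a printed gene overlap describes its values and is not a further test. The muscle, keratinocyte and dividing-cell lists stand in the text. The endothelial, immune, melanocyte, Schwann, adipocyte and pericyte lists summed to at most 33.5, 29.1, 3.82, 9.13, 101.5 and 477 CPM in any library.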

Additional observations from a re-analysis of the deposited data

Results flagged for a closer look

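Among 236 groups of 4 libraries, 24 had a library far from the other 3 (a gap above the 95% critical value of Dixon's test), and chance flags about 1 in 20 groups. Among summed levels, all Hox genes together stood at 419 CPM in wild mouse replicate 4 at 24 h and 20 Gy and at 413 CPM in passaged A. cahirinus replicate 4. The HoxC sum of A. cahirinus replicate 2 was 262 CPM at 10 Gy and 327 CPM at 20 Gy at 12 d, above the other 3 each time. The HoxB sum was low in passaged C56BL6 replicate 2 (130.3 CPM) and high in C56BL6 replicate 1 at 10 Gy and 12 d (182 CPM), and in wild replicate 2 it was low in passaged cells (4.77 CPM) and at 20 Gy (6.52 CPM).

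Among single genes of C56BL6 at 12 d, Hoxb9 was low in untreated replicate 1 (33.6 CPM), Hoxc5 was low in replicate 3 at 10 Gy (17.5 CPM), and Hoxb5 was high in replicate 1 at 20 Gy (11 CPM). In wild mouse at 12 d, Hoxc13 was low in replicate 3 both untreated (0.0331 CPM) and at 20 Gy (0.139 CPM), and Hoxa7 was high in untreated replicate 3 (37.3 CPM). Wild replicate 2 was high for Hoxd9 both passaged (6.99 CPM) and at 20 Gy (14.9 CPM).

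In A. cahirinus at 12 d, replicate 2 was high for Hoxc5 untreated (16.9 CPM) and at 20 Gy (42.4 CPM) and for Hoxc8 passaged (67.4 CPM), and low for Hoxd8 untreated (27.4 CPM). Replicate 4 was high for Hoxd3 untreated (3.94 CPM) and at 10 Gy (2.26 CPM) and for Hoxd8 at 20 Gy (20.3 CPM), and replicate 3 was low for Hoxb7 at 20 Gy (4.45 CPM).

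The interaction test found 11 differences between A. cahirinus and C56BL6 (A. cahirinus minus C56BL6, log2 scale, edgeR). For 20 Gy at 12 d these were Hoxa4 (-1.39), Hoxb5 (1.71), Hoxb8 (1.43), Hoxd8 (-0.83) and Hoxd9 (-1.13). For passaging they were Hoxa3 (-1.36), Hoxa7 (0.61), Hoxb2 (-1.25), Hoxb6 (-1.39), Hoxb8 (-2.37) and Hoxd3 (-2.59).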

How the results depend on the processing

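Counts of called members were recomputed for 36 comparisons under 316 alternatives, of which 235 stayed within 1.5 times the main count. For single members, 1301 of 1659 values kept their direction and side of the threshold, 198 passed only in the alternative, 160 passed only in the main fit and 0 reversed. The replicate block raised most counts. In C56BL6 it gave 2 (10 Gy) and 7 (20 Gy) at 24 h, and 8 (10 Gy), 10 (20 Gy), 18 (passaged) and 10 (20 Gy against passaged) at 12 d. In wild mouse it gave 1 (20 Gy) at 24 h, and 2, 2, 6 and 6 in the same 12 d comparisons. In A. cahirinus it gave 4 and 4 at 24 h, and 6, 14, 16 and 22 at 12 d, with 10 between the doses. For the interactions with C56BL6 it gave 4 (24 h), 9 (20 Gy, 12 d) and 10 (passaged), and for those with wild mouse 4 (20 Gy, 12 d) and 7 (passaged). The block without wild replicate 1, chosen after seeing the data, gave 4 (10 Gy) and 1 (20 Gy) at 24 h, 1 (10 Gy), 2 (passaged) and 4 (20 Gy against passaged) at 12 d, and 2 for the passaging interaction with wild mouse.

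Leaving out 1 replicate gave 0 to 5 (10 Gy), 0 to 4 (20 Gy), 4 to 12 (passaged) and 1 to 8 (20 Gy against passaged) in C56BL6 at 12 d, and 0 to 1 in passaged wild mouse. In A. cahirinus at 12 d it gave 0 to 3 (10 Gy), 2 to 10 (20 Gy), 0 to 4 (20 Gy against 10 Gy), 1 to 15 (passaged) and 7 to 19 (20 Gy against passaged). Between wild mouse and C56BL6 it gave 0 to 0 (24 h), 0 to 3 (12 d untreated) and 0 to 9 (passaged). For the interactions with C56BL6 it gave 1 to 4 (20 Gy, 12 d) and 1 to 4 (passaged), and 0 to 1 for passaging with wild mouse. For differences among animals it gave 12 to 20 and 10 to 16 in C56BL6 at 24 h and 12 d, and 11 to 21 in A. cahirinus at 12 d, where irradiated libraries alone gave 15. These fits had fewer samples, and the share of all genes called in them moved as well. For the 20 Gy interaction with C56BL6 at 12 d it was 15.2%, 17.1%, 4.33% and 6.7% without replicate 1, 2, 3 or 4. A change in such a count is thus not by itself a trait of the Hox genes.

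DESeq2 gave 7 (C56BL6, 20 Gy against passaged), 2 (A. cahirinus, 10 Gy, 12 d), 1 (A. cahirinus, 20 Gy against 10 Gy), 3 and 5 (wild against C56BL6 at 12 d, untreated and passaged) and 2 (interaction with C56BL6 at 24 h). No filter gave 2 in C56BL6 at 10 Gy and 12 d. All groups in one fit gave 7 in C56BL6 (20 Gy against passaged) and 1 in A. cahirinus (10 Gy, 12 d). The cause of these changes was not tested. Members under the level of 3 counts per library (0.0568 to 0.172 CPM) could not be told from 0.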
